A study of Mus musculus with 4 samples.

Results

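The BTB zinc finger genes encode transcription factors that pair an N-terminal BTB domain, through which they dimerize and recruit corepressors, with DNA-binding zinc fingers at the C-terminus. They were taken by name: every protein-coding gene of the RefSeq GRCm38.p6 annotation whose symbol is Zbtb followed by a digit, which gave 41 genes, plus Bcl6, Bcl6b, Bach1 and Bach2. The set holds 45 of 21900 protein-coding genes. Bach1 and Bach2 bind DNA through a basic leucine zipper in place of zinc fingers. Zbtb8os entered by its symbol alone and encodes archease, a cofactor of the tRNA ligase complex, so it is a neighbour of Zbtb8a and not a BTB factor. ChIP-seq, the sequencing of DNA recovered by chromatin immunoprecipitation, was used to map the histone mark H3K79me2 (dimethylation of a lysine within the core of histone H3) in dendritic cells derived from the bone marrow of C57BL/6J mice. One culture had received PBS and the other 18 mM lysine for 6 h, and the labels give no time for PBS and no number of mice. The 4 samples are an H3K79me2 library and an input of each culture, and the values come from the 2 H3K79me2 peak lists. With 1 library per condition there is no spread between libraries, so no test was made and every difference describes these 2 libraries only.

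H3K79me2 is made by the methyltransferase Dot1l and is found over transcribed genes, mostly from the start into the first part of the gene body. BTB zinc finger factors are known above all as repressors that set blood cell fates: Bcl6 directs germinal centre B cells and follicular helper T cells, Zbtb7b (ThPOK) CD4 T cells, Zbtb16 (PLZF) natural killer T and innate lymphoid cells, and Zbtb46 marks conventional dendritic cells and their precursors. Bach1 and Bach2 bind DNA with small Maf proteins, and heme releases Bach1 from its targets.

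BTB zinc finger genes carried called H3K79me2 more often than protein-coding genes at large in both libraries. Over the genes with a peak, the median covered length was 372 bp in PBS and 257 bp in lysine. Covered length is the number of bp of a gene, from end to end, that lie under broad peaks. A peak covered some part of 31 of the 45 genes in PBS (68.9%), compared with 34.0% of all protein-coding genes, and of 26 in lysine (57.8%), compared with 31.4%. Both libraries covered 24 genes (26.7% of all genes were covered in both). PBS alone covered 7 (7.32% of all genes) and lysine alone 2 (4.68%), and 12 genes had no peak in either library. The other 33 genes had a peak in at least 1 library (73.3%, against 38.7% of all genes). The median gene length was 21.0 kb for the set and 17.1 kb for all protein-coding genes, and shares were not adjusted for length. At least 500 bp, here called marked, were covered in 9 genes in PBS (20%, against 11.4% of all genes) and in 8 in lysine (17.8%, against 9.02%). Of these, 5 genes were marked in both (6.23% of all genes), 4 in PBS alone (5.13%) and 3 in lysine alone (2.79%).

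**Figure D1:**
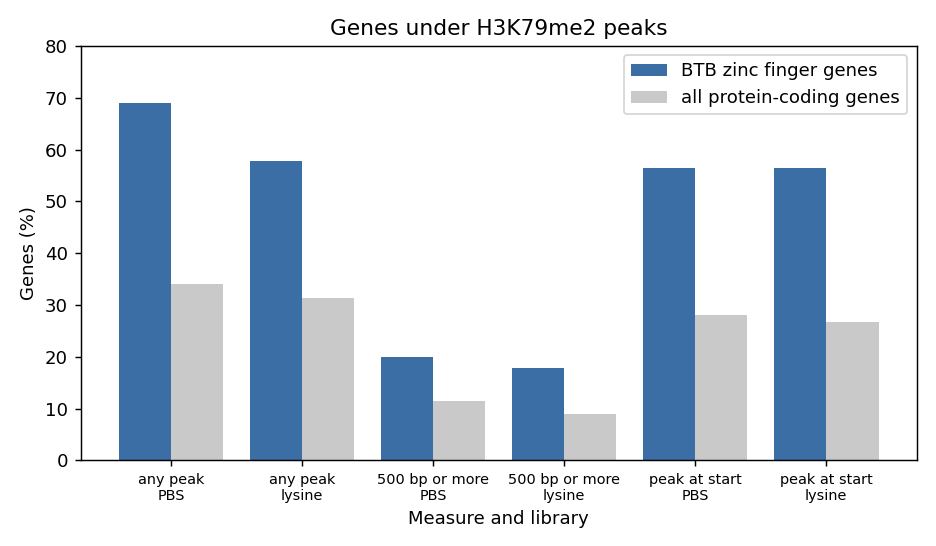
Percent of the BTB zinc finger genes (blue) and of all protein-coding genes (grey) with any peak on the gene, with at least 500 bp covered, and with a peak over the start window, in the PBS and the lysine library. The blue bars for any peak stand at 68.9% and 57.8%, above grey bars of 34.0% and 31.4%. Each bar is a share of genes in 1 library and has no error.

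Added over the 45 genes, covered length was 19.7 kb in PBS and 12.5 kb in lysine. The lysine total was 0.634 of the PBS total, against 0.796 for all protein-coding genes. Bcl6 and Bach2 made up 62.4% of the difference of -7.192 kb, and without them the ratio was 0.806. Covered length was shorter in lysine in 23 genes (51.1%, against 22.5% of all genes) and longer in 10 (22.2%, against 16.1%). These shares include genes without a peak, which can be neither. Of the genes with a peak in either library, 23 of 33 were shorter and 10 longer, against 4931 and 3516 of 8472 protein-coding genes. Taken as lysine minus PBS, the 33 genes with a peak had a median difference of -103 bp and quartiles of -239 and 26 bp, beside a median of -38 bp and quartiles of -254 and 92 bp over the 8472 protein-coding genes with a peak in either. A difference of at least 500 bp was found in 4 genes shorter in lysine (8.89%, against 4.26% of all genes). It was found in 2 that were longer (4.44%, against 1.83%). Over genes with a peak in either library these were 4 and 2 of 33, against 932 and 400 of 8472. The 24 genes covered in both libraries kept a similar order of covered length (Spearman's rho 0.706, a description over genes that share their libraries). When the PBS list was reduced to as many peaks as the lysine list, the total difference was -3.82 kb and the median difference -20 bp. The counts then stood at 25 genes with a peak in PBS and 26 in lysine, 18 shorter and 13 longer in lysine. PBS then no longer covered more genes of the set. The same counts over all protein-coding genes are not given here, so the shift is not shown to be particular to the set.

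**Figure D2:**
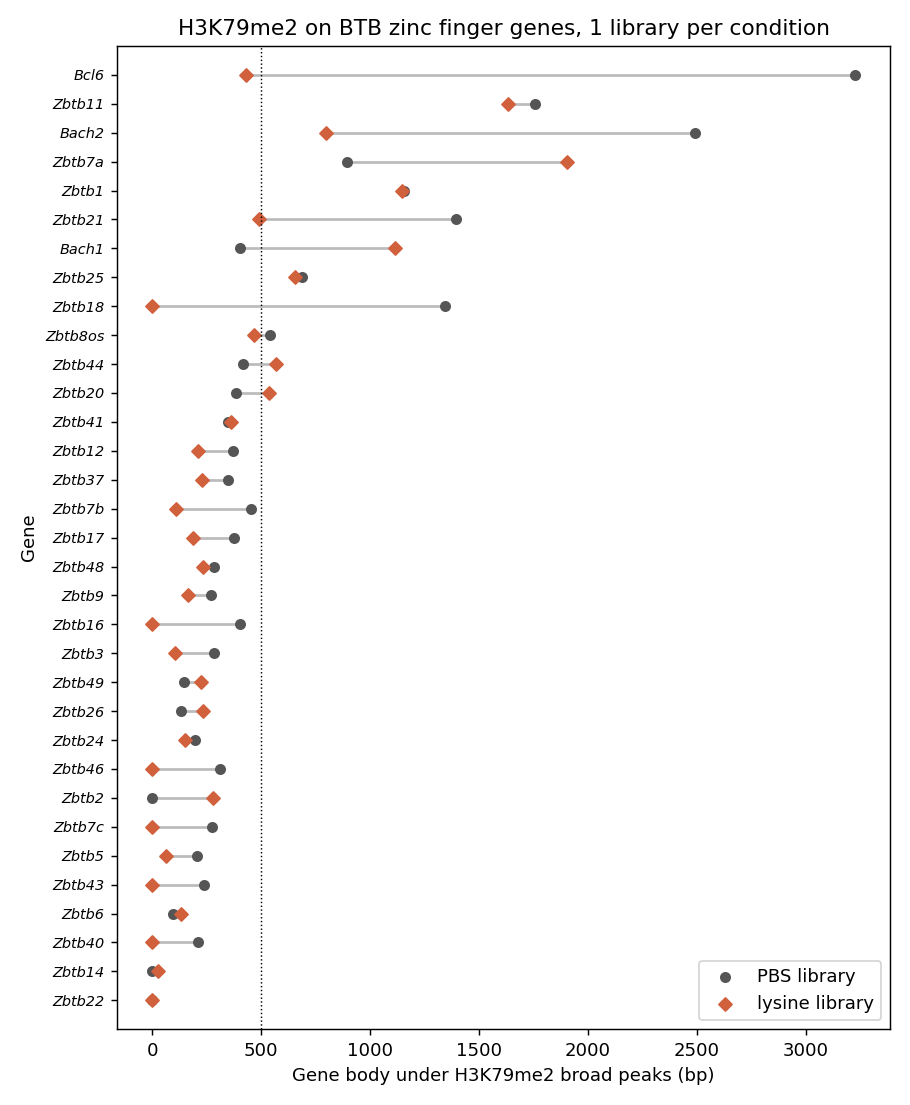
Covered length in bp (horizontal axis) of the 33 BTB zinc finger genes with a peak in either library, 1 row per gene. Circles are the PBS library and diamonds the lysine library, and the dotted line is at 500 bp. Bcl6 and Bach2 reach 3227 and 2493 bp in PBS and 431 and 798 bp in lysine, and Zbtb7a and Bach1 lie further right in lysine.

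The gene start was where the libraries were most alike. RefSeq start windows, from 250 bases before a start to 50 after it, were on hand for 39 of the 45 genes, and a peak lay over a window of 22 of them in each library (56.4%). Over 17492 protein-coding genes with a window the shares were 28.1% in PBS and 26.7% in lysine. The stretches before the start of 5 genes show the kind of sequence that was covered. Bcl6, Zbtb11 and Zbtb1 are the genes with the most covered length whose window lay under a peak in both libraries, and Zbtb7a and Zbtb17 are those whose window was covered in lysine alone. Windows of Zbtb22 and Zbtb43 were covered in PBS alone. The sequences run 5′ to 3′ along the gene's strand, end at the base before the start, and come from RefSeq on GRCm38.p6. Capitals mark motif matches.
Bcl6 (chr16:23988853-23989102, minus strand): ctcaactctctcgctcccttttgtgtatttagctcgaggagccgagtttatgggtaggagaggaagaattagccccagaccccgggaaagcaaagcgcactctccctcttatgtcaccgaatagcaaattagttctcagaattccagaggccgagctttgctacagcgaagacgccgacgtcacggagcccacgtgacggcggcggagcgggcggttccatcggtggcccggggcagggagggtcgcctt
Zbtb11 (chr16:55973554-55973803, plus strand): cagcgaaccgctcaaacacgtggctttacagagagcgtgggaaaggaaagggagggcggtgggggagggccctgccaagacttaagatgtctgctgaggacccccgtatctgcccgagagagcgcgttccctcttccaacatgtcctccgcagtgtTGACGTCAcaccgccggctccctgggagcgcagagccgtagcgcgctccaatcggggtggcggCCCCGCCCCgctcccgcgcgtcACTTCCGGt
Zbtb1 (chr12:76370270-76370519, plus strand): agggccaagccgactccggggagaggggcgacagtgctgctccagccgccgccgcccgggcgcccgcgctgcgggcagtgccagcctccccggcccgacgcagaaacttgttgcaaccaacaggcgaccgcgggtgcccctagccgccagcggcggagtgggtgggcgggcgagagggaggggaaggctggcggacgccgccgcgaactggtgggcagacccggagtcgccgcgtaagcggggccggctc
Zbtb7a (chr10:81136021-81136270, plus strand): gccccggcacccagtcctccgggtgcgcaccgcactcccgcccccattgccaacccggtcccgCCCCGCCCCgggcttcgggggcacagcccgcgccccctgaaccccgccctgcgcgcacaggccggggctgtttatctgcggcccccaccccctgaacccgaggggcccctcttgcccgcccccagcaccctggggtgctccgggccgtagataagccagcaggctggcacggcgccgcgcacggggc
Zbtb17 (chr4:141444434-141444683, plus strand): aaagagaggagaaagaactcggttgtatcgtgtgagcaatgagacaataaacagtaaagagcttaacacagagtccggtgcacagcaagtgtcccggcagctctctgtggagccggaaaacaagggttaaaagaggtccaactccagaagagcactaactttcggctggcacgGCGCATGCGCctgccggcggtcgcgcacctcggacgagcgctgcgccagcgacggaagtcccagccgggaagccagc
The 5 sequences ranged from 57.6% G and C in Zbtb17 and 58.4% in Bcl6 to 78.0% in Zbtb7a. They hold 20 to 33 CpG dinucleotides within 250 bases. Over the 28 windows of the set under a peak in either library the median was 65.2% G and C and 22 CpG, over its 25 windows without a peak 54.8% and 10. Over all 21263 windows of protein-coding genes the medians were 55.6% and 10, and over those under a peak 61.6% and 18.

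The motifs were searched on both strands of the 250 bases before the start, as exact letters, and none contains another. The SP/KLF box GGGGCGGGG was in 12 of the set's 53 windows (22.6%), against 13.9% of all windows, and stands in the Zbtb11 and Zbtb7a sequences above. The ETS site CCGGAAGT was in 3 (5.66%, against 3.79%) and the NRF1 site, whose letters are the capitals of the Zbtb17 sequence, also in 3 (5.66%, against 1.07%). The cyclic AMP response element TGACGTCA was in 1, Zbtb11 (1.89%, against 1.92%), whose 3 matches, to CRE, SP/KLF and ETS, do not overlap. The Bcl6 site TTCCTAGAA and the Maf recognition element (MARE) bound by Bach factors were in 0 of 53 windows, and in 0.329% and 0.08% of all windows. Windows of 1 gene can overlap, as the NRF1 match counted in 2 windows of Zbtb17 shows. These are matches of letters and were not tested as binding sites.

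Away from the start the libraries parted. For the genes with a known strand, the bp within 1 kb of a listed start or of the gene's 5′ end came to 9.56 kb in PBS and 9.27 kb in lysine, a ratio of 0.970, against 0.894 over all stranded protein-coding genes. Farther inside the genes there were 8.93 kb in PBS, on 12 of 39 genes, and 2.97 kb in lysine, on 6. Over all 17492 stranded genes, 1951 had covered length there in PBS and 1509 in lysine. The ratio of the set's inner lengths was 0.332, against 0.663 over all stranded genes. Bcl6 and Bach2 carried much of it: without both the inner lengths were 3.60 and 2.17 kb, a ratio of 0.602, and without Bcl6 alone 6.09 and 2.97 kb. Without Zbtb7a the lengths near starts were 9.41 and 8.06 kb. With equal numbers of peaks they were 8.74 kb in PBS and 9.27 kb in lysine, and the inner lengths 6.65 and 2.97 kb.

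The set's peaks numbered 39 in PBS and 28 in lysine. Lysine overlapped 25 of the PBS peaks (64.1%, 95% Clopper-Pearson interval 47.2 to 78.8, which covers counting error only), compared with 66.3% of all PBS peaks on protein-coding genes. PBS overlapped 25 of the lysine peaks (89.3%, 71.8 to 97.7), compared with 78.5%. Significance is given as the authors' −log10 q, which depends on each library's depth and ranks peaks within a list, and fold enrichment is the authors' ratio to background. The 14 PBS peaks that no lysine peak overlapped had a median −log10 q of 2.39 and a highest value of 4.58, and those with a partner a median of 4.71 and a highest value of 20.8. The 3 lysine peaks without a partner lay between 1.41 and 1.77, the partnered ones between 1.82 and 13.8. All peaks of the set of −log10 q 5 or more, 12 in PBS and 11 in lysine, had a partner. No split by strength over all peaks is given here, so this pattern is not shown to be particular to the set. The midpoint lay within 1 kb of a listed start of any protein-coding gene for 20 PBS peaks (51.3%, interval 34.8 to 67.6), against 52.1% of PBS peaks on protein-coding genes, and for 22 lysine peaks (78.6%, interval 59.0 to 91.7), against 57.9%. Peaks of 1 kb or more numbered 7 in PBS (17.9%, interval 7.54 to 33.5) and 5 in lysine (17.9%, 6.06 to 36.9), compared with 10.7% and 9.16% of peaks on protein-coding genes.

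**Figure D3:**
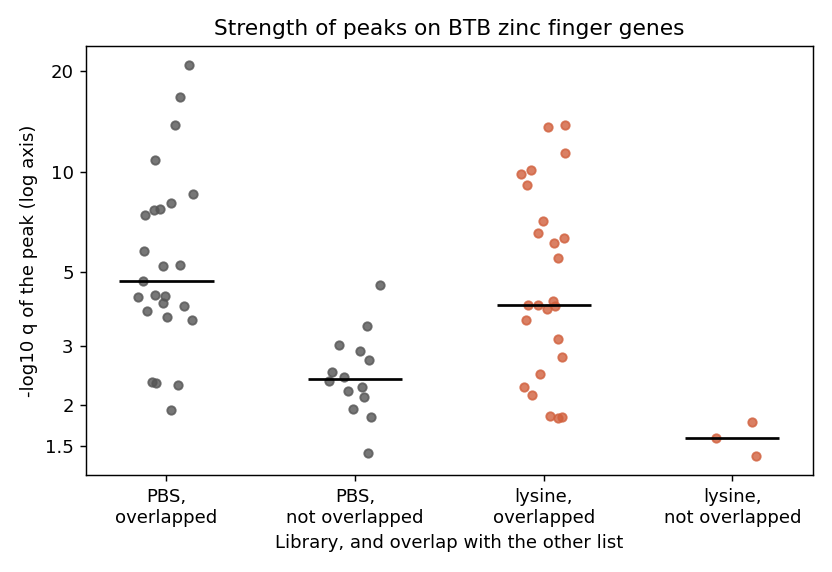
The authors' −log10 q (vertical axis, log scale) of each peak on a BTB zinc finger gene, by library and by whether the other list has a peak there. Points are peaks, spread sideways for legibility, and lines are medians. Peaks outside the set are not drawn. The 14 unpartnered PBS peaks stay at or below 4.58 and the 3 unpartnered lysine peaks at or below 1.77.

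Bcl6, the repressor of germinal centre B cells that also restrains inflammatory genes in myeloid cells, had the most covered length in PBS and the largest difference of the set. It lies on the minus strand at chromosome 16, 23965050 to 23988866. Covered length was 3227 bp in PBS and 431 bp in lysine, a difference of -2796 bp. The start was under a strong peak in both libraries, 640 bp wide in PBS (fold enrichment 5.53, −log10 q 7.68) and 641 bp in lysine (7.28 and 11.4), and its promoter is the first sequence printed above. PBS had 3 further peaks inside the gene without a lysine partner. The widest, of 2226 bp at 23984460 to 23986685, had a fold enrichment of 3.77 at −log10 q 2.42, and the other two spanned 319 and 292 bp at −log10 q 2.26 and 3.01. With peaks of −log10 q 5 or more alone, only the start peaks remained and the difference turned to 41 bp (390 bp in PBS and 431 bp in lysine). By the narrow blocks inside the broad regions it was -945 bp.

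Bach2, which holds B cells and T cells back from effector fates, lies on the plus strand of chromosome 4 (32238413 to 32586109) and was covered over 2493 bp in PBS and 798 bp in lysine. None of its peaks lay at a start. The 5 PBS peaks had midpoints 12.3, 120, 125, 332 and 337 kb from the 5′ end of the gene, with −log10 q of 4.23, 2.36, 3.81, 3.45 and 2.2. Lysine had 2 peaks, of 416 and 382 bp, which overlapped the PBS peaks at 12.3 and 125 kb, with −log10 q of 2.47 and 1.82. No Bach2 peak of either library reached a −log10 q of 5, so the gene showed no covered length there. Bach1, the heme-regulated repressor of heme oxygenase, went the other way: its covered length was 403 bp in PBS and 1115 bp in lysine (chromosome 16, 87698954 to 87733346). Both libraries had a peak inside the gene, 26.1 kb from its 5′ end in PBS, of 403 bp in PBS and 297 bp in lysine. Lysine added a peak of 818 bp close to the start (87699498 to 87700315, fold 3.54, −log10 q 1.77), which had no narrow block. Under a minimum −log10 q of 2 the Bach1 difference turned from 712 to -403 bp.

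**Figure D4:**
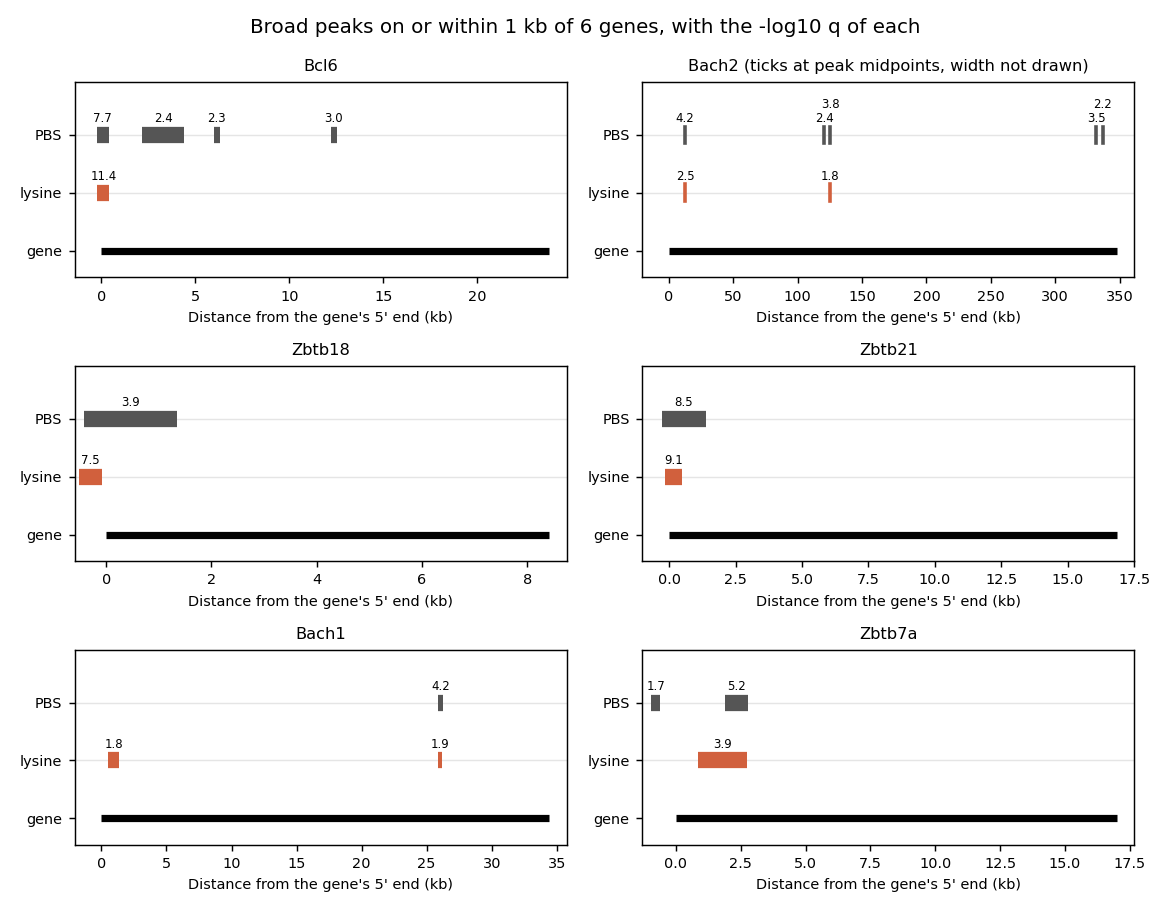
Broad peaks of the PBS (grey) and lysine (orange) library on 6 genes, drawn by distance in kb from the gene's 5′ end, with the −log10 q above each peak and the gene as a black bar. Bach2 peaks are drawn as ticks without width. Bcl6 has 3 inner PBS peaks without a lysine peak opposite, and the lysine peak of Zbtb18 ends 72 bp before the gene.

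Of the 13 genes with roles in blood and immune lineages, PBS peaks lay on 11 and lysine peaks on 9, and 5 were marked in each. Marked genes made up 20% of the whole set in PBS and 17.8% in lysine, and 11.4% and 9.02% of all protein-coding genes. In percent, a peak lay on 84.6% of the 13 genes in PBS and 69.2% in lysine. The shares were 68.9% and 57.8% of the whole set and 34.0% and 31.4% of all protein-coding genes. The 13 genes differed as follows. Their total was 10.6 kb in PBS and 5.92 kb in lysine, a difference of -4.661 kb. Bcl6 and Bach2 together made up -4.491 kb of this difference. Of the 13 genes, 9 were shorter in lysine and 2 longer (22.5% and 16.1% of all genes). These 9 and 2 are out of 11 genes with a peak in either library, where all protein-coding genes had 4931 and 3516 of 8472. The longer ones were Zbtb7a and Zbtb20. Zbtb7a (LRF), needed for erythroid and B cell development, had 896 bp in PBS and 1906 bp in lysine (chromosome 10, 81135225 to 81152222). Its lysine peak (81136062 to 81137967, −log10 q 3.94) contained most of the PBS peak (81137120 to 81138015, −log10 q 5.24) and reached back over the start. A weak PBS peak (−log10 q 1.66) lay 600 bp before the gene. The Zbtb7a difference of 1010 bp turned to -224 bp by narrow blocks and to -896 bp with peaks of −log10 q 5 or more. Zbtb20, a regulator of plasma cells and a repressor of alpha-fetoprotein in liver, had 386 and 538 bp. Its strongest peak lay over the 5′ end of the gene in both libraries, with −log10 q of 13.8 in PBS and 10.1 in lysine.

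Zbtb46, the dendritic cell factor, had little called mark: 310 bp in PBS and none in lysine. Its single peak lay inside the gene, 9.35 kb from the 5′ end, with a fold enrichment of 3.62 at −log10 q 1.94. No Zbtb46 peak was left when a −log10 q of 2 or more was required. Zbtb16 had 404 bp in PBS, in 1 peak far inside the gene (48745125 to 48745528 on chromosome 9, −log10 q 4.58), and none in lysine. Zbtb7b had 454 bp in PBS and 108 bp in lysine, where a peak of about 1 kb reached over the 5′ end in both libraries and PBS had a second of 326 bp inside. Zbtb17 (Miz1), a partner of Myc, had 374 and 186 bp from peaks at different places, 9.85 kb inside the gene in PBS and at the start in lysine, the latter at a −log10 q of 1.41. With equal numbers of peaks the Zbtb17 difference turned from -188 to 186 bp. Zbtb24, mutated in an immunodeficiency with loss of satellite DNA methylation, had 196 and 152 bp at its start. Zbtb1, needed for lymphocyte development, and Zbtb25 overlap head to head on chromosome 12 and share the same peak, 1681 bp in PBS and 1641 bp in lysine. It gave Zbtb1 1157 and 1147 bp and Zbtb25 688 and 658 bp. With a fold of 4 or more only the PBS peak was left (1157 and 688 bp against 0 bp), and by narrow blocks Zbtb1 had 342 and 0 bp and Zbtb25 543 and 426 bp. Bcl6b and Zbtb32 had no covered length in either library.

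Outside that group Zbtb18, Zbtb21 and Zbtb11 had the most covered length in PBS. Zbtb18 (RP58), a repressor known from cortical neurons, had 1345 bp in PBS and 0 bp in lysine (chromosome 1, 177442351 to 177450764). Its PBS peak of 1772 bp ran across the start at a −log10 q of 3.94. The lysine library did have a peak there, of 449 bp and a −log10 q of 7.47, but it ended 72 bp before the gene and covered only the promoter. By narrow blocks the Zbtb18 difference was -343 bp. Zbtb21 had 1394 and 492 bp, in a PBS peak of 1660 bp and a lysine peak of 627 bp that lay inside it, both at the start (−log10 q 8.55 and 9.09). Its direction held under all 7 alternatives run on single genes, which were run on 24 genes of the set and not on the others. Zbtb11, known for control of mitochondrial genes and neutrophil development, had 1757 and 1634 bp, in peaks over its start with −log10 q of 4.27 and 6.54. With peaks of −log10 q 5 or more only the lysine peak was left, a difference of 1634 bp. Zbtb44 had 418 and 567 bp at its start, and Zbtb8os 539 and 469 bp under a peak that also covers Rbbp4.

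The factors that bind methylated DNA, Zbtb33 (Kaiso), Zbtb4 and Zbtb38, had no covered length in either library. Of all protein-coding genes, 38.7% had a peak in at least 1 library, so most had none. Of the telomere-binding factors, Zbtb48 (TZAP) had 284 bp in PBS and 233 bp in lysine under a peak shared with Tas1r1. Zbtb10, whose strand was not on hand, had none on the gene. Both libraries did have a peak within 390 bp of its lower-coordinate end (−log10 q 9.52 in PBS and 14.2 in lysine). In the cell cycle and p53 group of 5, which also holds Zbtb7a, Zbtb17 and Zbtb4, Zbtb5 had 205 and 63 bp at its start, under one of the strongest peaks of the set (−log10 q 16.7 and 13.8). Zbtb2 had 0 bp in PBS and 280 bp in lysine, at a −log10 q of 1.59. The highest −log10 q of the set in PBS, 20.8, was at the start of Zbtb3, which had 285 and 104 bp.

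The other genes covered in 1 library alone had small lengths. In PBS alone these were Zbtb43 (239 bp at its start, −log10 q 2.89), Zbtb40 (211 bp, 2.51), Zbtb7c (276 bp, 1.43) and Zbtb22 (2 bp, the edge of a peak over Tapbp). In lysine alone Zbtb14 had 26 bp, and PBS had a peak that ended 108 bp before the gene. A total of 13 genes were covered in both libraries without being marked in either, and they differed by at most 346 bp. Besides those named they were Zbtb3, Zbtb6, Zbtb9, Zbtb12, Zbtb26, Zbtb37, Zbtb41 and Zbtb49, with peaks at the gene start in both libraries. No covered length was found on Zbtb8a, Zbtb8b, Zbtb34, Zbtb39, Zbtb42 and Zbtb45. H3K79me2 too weak to be called is not seen in peak lists, so absence of a peak does not show absence of the mark.

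Genes that work with these factors differed in both directions. Their counts stand beside 34.0% of all protein-coding genes with a peak in PBS and 31.4% in lysine, 22.5% shorter and 16.1% longer in lysine, and a total ratio of 0.796. Those shares include genes without a peak. Of the 8472 protein-coding genes with a peak in either library, 4931 were shorter and 3516 longer. PBS peaks lay on 22 of 28 corepressors and partners and lysine peaks on 15, with 19.5 and 12.5 kb covered (a ratio of 0.644), 17 shorter in lysine and 5 longer. The median length of these 28 genes was 54.3 kb, against 17.1 kb for all protein-coding genes, and the counts were not adjusted for length. Sin3a, the scaffold of a histone deacetylase complex, had 3166 and 2990 bp. Nfe2l2 (Nrf2), which competes with Bach1 for the same sites, had 3102 and 1556 bp, and Mafg, a small Maf partner, 1528 and 0 bp. The other small Maf genes, named after their values were seen, were longer in lysine, Maff with 885 and 1829 bp and Mafk with 245 and 551 bp. Among 10 genes known as Bach1 targets 5 were covered in PBS and 6 in lysine (4.79 and 3.98 kb, 4 shorter and 3 longer). The cystine transporter gene Slc7a11 had 2675 and 1896 bp, Txnrd1 (thioredoxin reductase) 851 and 360 bp, and Fth1 (ferritin heavy chain) 746 and 568 bp. Of the other targets, also named after their values were seen, Hmox1 (heme oxygenase) had 332 and 0 bp, and those longer in lysine were Gclm (0 and 441 bp), Ftl1 (186 and 572 bp) and Srxn1 (0 and 144 bp). Among 11 known as Bcl6 targets 8 were covered in PBS and 7 in lysine (2.55 and 3.08 kb, 5 shorter and 4 longer). Cd44 had 1020 and 1297 bp, Ccnd2 (cyclin D2) 0 and 789 bp, and Cd69 325 and 0 bp. Of 6 further BTB zinc finger genes under other names, 2 were covered in PBS and 3 in lysine. Gzf1 had 861 and 831 bp, Mynn 0 and 579 bp and Zfp131 0 and 355 bp. With 1 library each, none of these counts could be tested.

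The lists held 11926 peaks over 6.78 Mb in PBS and 9805 over 5.40 Mb in lysine, and their read depth is unknown because the files give none. Against the labelled cell type, 7 of 10 dendritic cell markers were covered in PBS (70%) and 6 in lysine (60%), over 8.69 and 5.73 kb. The shares of all protein-coding genes were 34.0% and 31.4%. Among these markers were Cd86 (2478 and 1081 bp), H2-Ab1 (2442 and 0 bp) and Cd74 (900 and 2134 bp). Irf8 had 33 and 146 bp, and Batf3, Ccr7 and Irf4 had no covered length in either library. Of 5 macrophage markers 4 and 1 had a peak (1.89 and 1.16 kb), with Csf1r at 1171 and 1160 bp, Mertk at 341 and 0 bp and Fcgr1 at 325 and 0 bp. The macrophage marker Adgre1 had no covered length in either library. Of 5 neutrophil markers 1 and 0 had a peak, S100a8 with 71 bp in PBS. The 4 T cell markers matched had none in either library, Cd3e and Cd3g among them, and the B cell gene Cd79a had none. The part that the number of peaks, the depth or the mix of cells has in the differences above was not tested.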

How the data were processed

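H3K79me2 ChIP-seq libraries of 2 cultures, 1 per condition, were analysed from the authors' deposited broad and gapped peak lists, called per sample. Input libraries were not used here. Among the tools in the submitters' processing notes are Bowtie2 2.3.4.1 and MACS2 2.1.2, beside cutadapt 1.18 and Trimmomatic 0.38, and the build is GRCm38. How peaks were thresholded and whether inputs served as controls is not given in the sources used here. Deposited fold enrichment is a linear ratio to the local background, the deposited significance is a −log10 p and a −log10 q, and the deposited score is derived from the −log10 q. All of them depend on depth, which is unknown, and ranked or filtered peaks within a list only.

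Genes, strands and start windows came from RefSeq GRCm38.p6. Of the 45 genes 10 overlap another protein-coding gene, and 6 had no start window. The start windows do not hold every start of a gene. Covered length was summed per gene, and genes with at least 500 bp were called marked. In the alternatives the value of a count or total was taken as moved past 1.5 times. The members and lists were chosen with earlier results of these data known. Named with values were the genes marked in either library, those covered in 1 library alone, and Zbtb46, Zbtb7a, Zbtb7b, Zbtb16, Zbtb17, Zbtb20, Zbtb33, Bcl6, Bcl6b, Bach1 and Bach2, and from each list of partners or targets the 2 most covered genes and the 2 that differed most. Further genes of the set and markers were named to account for them. Computations used Python 3.11.15, numpy 2.4.6, pandas 2.3.3, scipy 1.17.1 and matplotlib 3.10.9, and covered length was tested on simulated data. Planned protein features were not analysed here, and the full list of B cell markers is not reported here.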

Additional observations from a re-analysis of the deposited data

How the results depend on the processing

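Of 112 alternative values of the counts and totals 72 stayed within the limits set, 38 moved and 2 reversed. No paired analysis was possible because each condition has 1 library. Values under the alternatives are given for the set alone. With peaks of −log10 q 5 or more, 12 genes were covered in PBS and 11 in lysine, 3 and 2 were marked, 8 were shorter and 6 longer in lysine, the total difference was -0.706 kb and the median -60.5 bp. With peaks of 1 kb or more these values were 8 and 6, 4 marked in lysine, 8 and 2, -3.11 kb and -25 bp. With equal numbers of peaks the total difference was -3.82 kb and the median -20 bp, and 25 genes were covered in PBS and 26 in lysine. Genes marked in lysine numbered 4 with fold 4 or more, 5 by narrow blocks and 4 without the genes that overlap another. With gene ends extended by 1 kb 21 were marked in PBS and 20 in lysine, and the median was -45 bp. A minimum of 250 bp marked 23 and 13, and one of 1000 bp 4 in lysine. Without Bcl6 and Bach2, an alternative chosen after seeing the data, the total difference was -2.701 kb.

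The split by distance from a start was also chosen after seeing the data. Its inner difference of -5.962 kb was negative in every alternative run. It was -1.43 kb without Bcl6 and Bach2, -3.125 kb without Bcl6, -0.744 kb with −log10 q 5 or more, -2.962 kb with fold 4 or more, -3.685 kb with equal numbers of peaks and -2.305 kb with peaks of 1 kb or more. The difference near starts, -0.288 kb, reversed to 0.089 kb with −log10 q 5 or more and to 0.531 kb with equal numbers. It was -1.346 kb without Zbtb7a, -1.172 kb with −log10 q 2 or more, -2.408 kb with fold 4 or more, -0.805 kb with peaks of 1 kb or more and -0.695 kb by narrow blocks.

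Of 22 genes with a difference run singly 6 reversed, 15 others showed no difference under some alternative, and Zbtb21 did neither. Other genes of the set were not run singly. Bach1 reversed to -403 bp with −log10 q 2 or more and with fold 4 or more, and to -106 bp by narrow blocks. Bcl6 (41 bp), Zbtb11 (1634 bp) and Zbtb7a (-896 bp) reversed with −log10 q 5 or more, Zbtb7a also by narrow blocks (-224 bp), Zbtb17 with equal numbers (186 bp) and Zbtb14 with extended ends (-1 bp). Apart from the change in peaks, measured blocks or gene ends that each alternative makes, the cause was not tested.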

Other observations

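All 5 genes of the set on chromosome 16, Bcl6, Bach1, Zbtb11, Zbtb20 and Zbtb21, were marked in at least 1 library. The whole set had 12 such genes. Hic2, a BTB zinc finger gene of that chromosome outside the set, had no covered length in either library. Of 679 protein-coding genes on that chromosome 114 (16.8%) were marked in at least 1 library, against 14.2% of all protein-coding genes. This grouping was noticed after the values were seen.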
